A study of Caenorhabditis elegans with 8 samples.

Results

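Calcineurin and the calmodulin-dependent kinases are enzymes that read the calcium level of a cell. The 10 genes described here encode calmodulin, calcineurin and its regulator, the calmodulin kinase cascade with its transcription factor, and a pair of enzymes that act on second messengers of the same pathway. They were listed by name, with earlier results of these data known, and each is represented by a probe set whose platform annotation gives that symbol alone. All 10 have 1 such probe set, out of 25478 genes that the array measures in this way. Transcripts of whole worms were measured in 4 samples of *dyf-1(mn335)*, strain PP896, and in 4 samples of wild-type, strain N2 Bristol. Both were age-synchronised hermaphrodites on day 1 of adulthood, grown at 22 °C, and many animals were pooled for each sample. *dyf-1* encodes a ciliary protein that couples the kinesin OSM-3 to intraflagellar transport, and the mutant has defective sensory cilia. It carries this mutation in every cell, so that the comparison is not limited to ciliated neurons. The values are log2 expression values, which the authors normalised with RMA, and 1 unit is a doubling.

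When calcium enters a cell it binds calmodulin, and calcium-loaded calmodulin switches on both branches of the pathway. In one branch calcineurin, made of a catalytic A subunit and a calcium-binding B subunit, removes phosphates from its substrates. In the other, a kinase kinase activates calmodulin kinase I, which can lead to phosphorylation of the transcription factor CREB, while calmodulin kinase II acts on its own. In *C. elegans* calcineurin and calmodulin kinase I are known for setting the response of sensory neurons to temperature, and calmodulin kinase II for controlling synapses and muscle.

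Before the results, 1 array has to be set apart. Wild-type replicate 4 correlated with wild-type replicates 1 to 3 at 0.958 to 0.974 over all probe sets and with mutant replicates 1 to 3 at 0.976 to 0.978. Between pairs of wild-type replicates 1 to 3 the correlation was 0.987 to 0.992. For mutant replicate 4 it was 0.978 to 0.984 against its own group, and 0.993 to 0.994 between the remaining mutant arrays. Values without wild-type replicate 4 are therefore given beside those from all 8 arrays for the 10 genes, the pairs and the counts of each list. The *dyf-1* transcript itself had log2 values of 6.85 to 7.48 in the mutant and of 5.61 to 6.26 in wild-type. Replicate 4 read 7.48 in the mutant and 6.07 in wild-type, so that each lay with the other arrays of its label. No source used here describes the lesion of *mn335*, and the level cannot check which strain carries it.

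With all 8 arrays, 4 of the 10 genes rose in *dyf-1(mn335)* and 0 fell, where a rise or fall means an adjusted p under 0.01 in limma over all 29317 probe sets. Of all probe sets, 6.56% were called higher and 3.46% lower in the mutant. All 10 genes are among the 15520 probe sets with a mean log2 value of at least 5. In a fit of these alone, 1404 were called higher and 786 lower. Of the 10 genes, those that rose with all 8 arrays were *tax-6*, *rcan-1*, *cmk-1* and *ckk-1*. In 6 of the 10 genes all mutant arrays lay above all wild-type ones, and the strains did not overlap in 23.7% of all probe sets. The median log2 fold change was 1.06 over the 10 genes and -0.04 over all genes. Without wild-type replicate 4, 8 of the 10 rose and 0 fell, at shares of 13.3% of all probe sets higher and 12.9% lower. That array was the highest wild-type array in 9 of the 10 genes, so that leaving it out had to raise their log2 fold changes. The added calls, here and gene by gene below, are therefore not separate support. Without replicate 4 of both strains 9 rose, at a share of 17.0%. *cnb-1*, the B subunit of calcineurin, rose in none of these settings, and *pde-1* only without both replicate 4 arrays. In RNA of whole worms, a change in the number of cells of a type and a change in RNA per cell cannot be told apart.

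**Figure D1:**
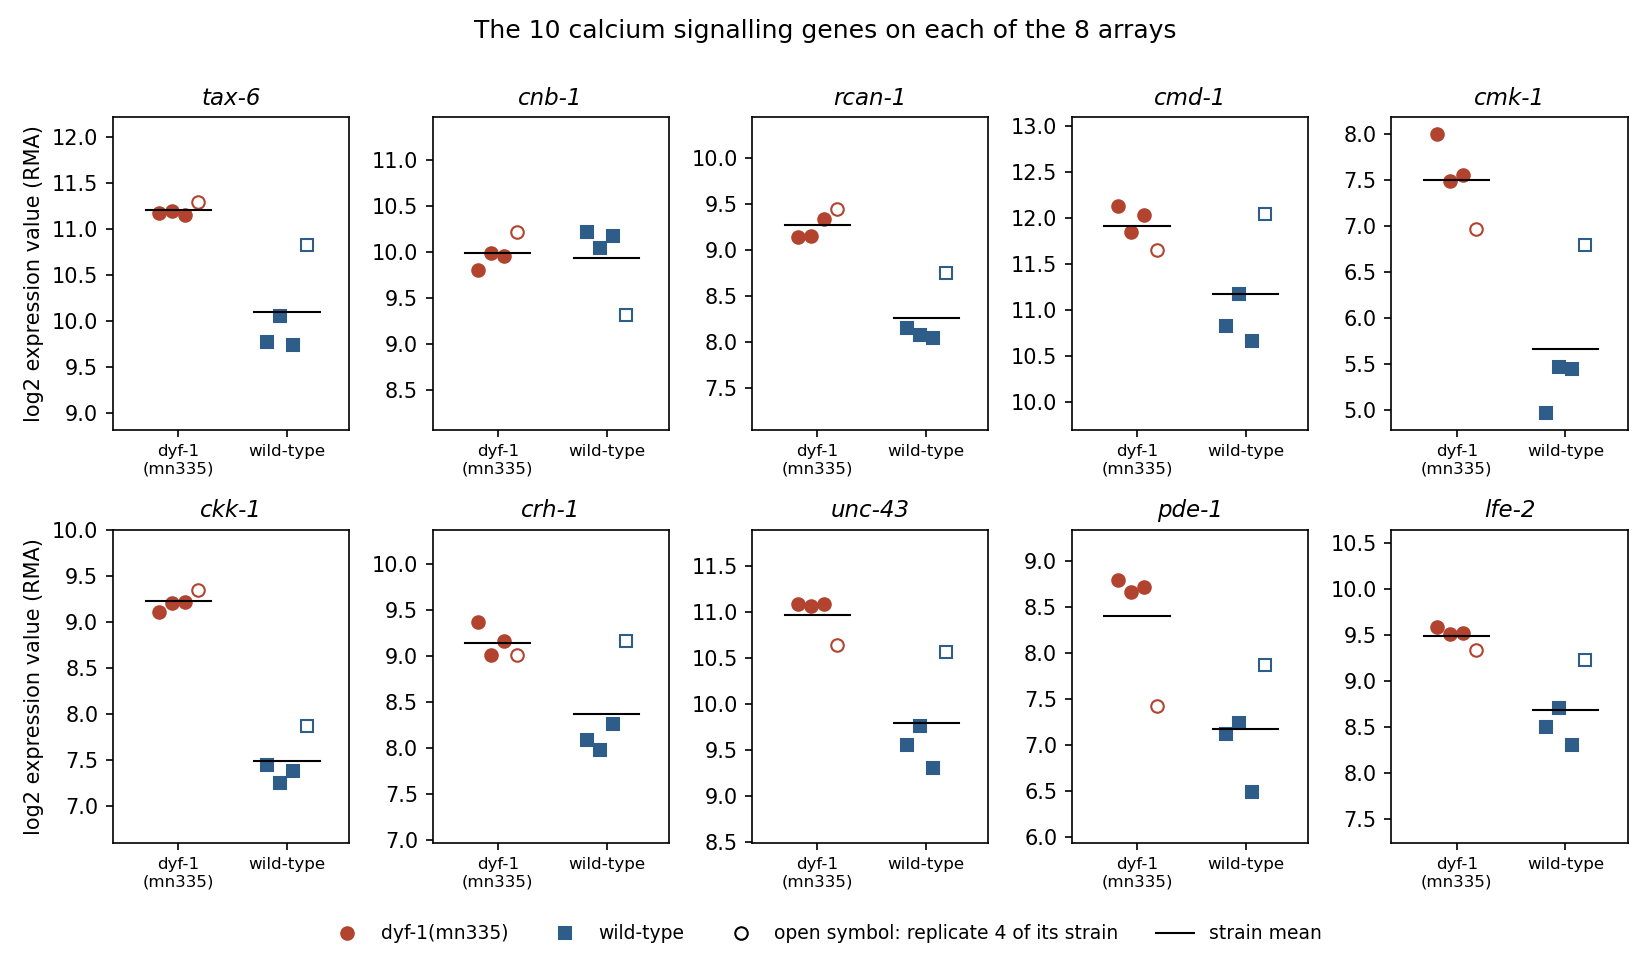
Log2 expression values (y axis, RMA) of the 10 genes in *dyf-1(mn335)* (circles) and wild-type (squares), 1 symbol per array, open for replicate 4 of its strain, with a line at the strain mean. All panels span the same number of log2 units but at different heights. Wild-type replicate 4 is the highest wild-type array in 9 panels and the lowest in that of *cnb-1*.

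Calmodulin, encoded by *cmd-1* (probe set 18576470), is the calcium sensor that the other enzymes share. On the arrays it read 12.13, 11.85, 12.03 and 11.65 in *dyf-1(mn335)* replicates 1 to 4, against 10.82, 11.17, 10.66 and 12.04 in wild-type replicates 1 to 4 on the log2 scale. The mutant arrays thus lay above wild-type replicates 1 to 3, and wild-type replicate 4 lay among the mutant arrays. The log2 fold change was 0.74 (standard error 0.28), which did not pass (adjusted p = 0.083 from limma, exact two-sided permutation test p = 0.114). It was 1.03 without wild-type replicate 4, and *cmd-1* then rose (adjusted p = 0.0019 from limma).

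*tax-6* (probe set 18548171) encodes the catalytic A subunit of calcineurin, the only one in the worm. Its log2 values were 11.18, 11.20, 11.15 and 11.29 in the mutant arrays, against 9.77, 10.06, 9.74 and 10.83 in wild-type. The mutant arrays lay within a narrow band above all wild-type arrays, and the wild-type ones spread more widely, with replicate 4 nearest to the mutant. It averaged 11.21 ± 0.06 in the mutant and 10.10 ± 0.51 in wild-type (SD, n = 4 each), a log2 fold change of 1.11 with a 95% confidence interval of 0.58 to 1.63, or 2.15-fold (adjusted p = 0.0095 from limma). The exact two-sided permutation test gave p = 0.0286, the smallest that 4 arrays against 4 allow. The log2 fold change was 1.35 without wild-type replicate 4 (adjusted p = 0.00015 from limma).

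*cnb-1* (probe set 18571145) encodes the regulatory B subunit, without which the A subunit does not work as a phosphatase. In the order of the replicates the log2 values were 9.80, 9.99, 9.96 and 10.22 in the mutant, against 10.22, 10.04, 10.17 and 9.31 in wild-type. The strains overlapped, and wild-type replicate 4 lay below every other array. The log2 fold change was 0.06 with a 95% confidence interval of -0.42 to 0.54 (adjusted p = 0.86 from limma, exact two-sided permutation test p = 0.914). The interval leaves room for a rise of up to 0.54, just short of the lower limit of 0.58 for *tax-6*. Compared directly on each array, the difference between the subunits overlapped between the strains (exact permutation p = 0.143). The direction turned when wild-type replicate 4 was left out, to -0.15 (adjusted p = 0.41 from limma), and when the median of every array was subtracted, to -0.10. Among replicates 1 to 3 alone, the mutant arrays all lay below the wild-type ones, with a mean difference of -0.23, and this difference did not pass either (adjusted p = 0.15 from limma).

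*rcan-1* (probe set 18524615) encodes the regulator of calcineurin, a protein that binds the phosphatase and can inhibit it. The log2 values of this gene were 9.15, 9.16, 9.35 and 9.45 in the mutant, against 8.15, 8.09, 8.05 and 8.76 in wild-type. The groups did not overlap, and wild-type replicate 4 lay above the other wild-type arrays and below all mutant ones. *rcan-1* rose by a log2 fold change of 1.01 (standard error 0.18), or 2.02-fold (adjusted p = 0.0047 from limma). Leaving out wild-type replicate 4 gave 1.18 (adjusted p = 0.00025 from limma).

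The largest log2 fold changes among the 10 genes were those of *cmk-1* and *ckk-1*, in the kinase branch. *ckk-1* (probe set 18508594) encodes the calmodulin kinase kinase at the top of the cascade. The arrays gave log2 values of 9.12, 9.21, 9.22 and 9.36 in the mutant, against 7.45, 7.25, 7.39 and 7.88 in wild-type. More than 1 log2 unit separated the lowest mutant array from the highest wild-type array, replicate 4. *ckk-1* rose by a log2 fold change of 1.74 (standard error 0.16, 95% confidence interval 1.38 to 2.09), or 3.33-fold (adjusted p = 0.00028 from limma). It was the only one of the 10 that kept its call in all 17 alternative settings tried, with log2 fold changes of 1.58 to 1.86.

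*cmk-1* (probe set 18540185) encodes calmodulin kinase I, the substrate of that kinase. For this gene the arrays gave log2 values of 8.0, 7.49, 7.55 and 6.97 in the mutant, against 4.96, 5.47, 5.44 and 6.79 in wild-type. Wild-type replicate 4 lay just under the lowest mutant array and far above the other wild-type arrays. It averaged 7.50 ± 0.42 in the mutant and 5.66 ± 0.78 in wild-type (SD, n = 4 each), a log2 fold change of 1.84 with a 95% confidence interval of 1.00 to 2.68, or 3.57-fold (adjusted p = 0.0082 from limma). Without wild-type replicate 4 it was 2.21 (adjusted p = 0.00026 from limma). Of the wild-type arrays, 1 lay under a log2 value of 5, below which a level was taken as dim and the size of a fold change as uncertain.

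*crh-1* (probe set 18517272) encodes the CREB transcription factor, which calmodulin kinase I can activate. Log2 values were 9.37, 9.01, 9.17 and 9.01 in the mutant, against 8.08, 7.97, 8.26 and 9.17 in wild-type. As with *cmd-1*, wild-type replicate 4 stood among the mutant arrays and the other 3 wild-type arrays stood below them. The log2 fold change was 0.77 (standard error 0.25), which did not pass (adjusted p = 0.053 from limma, exact two-sided permutation test p = 0.114), and without wild-type replicate 4 it was 1.03 (adjusted p = 0.00071 from limma).

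*unc-43* (probe set 18554527) encodes calmodulin kinase II. Its log2 values were 11.08, 11.06, 11.08 and 10.64 in the mutant, against 9.55, 9.76, 9.30 and 10.56 in wild-type. The strains did not overlap, but the replicate 4 arrays of both came within 0.1 of each other. The log2 fold change was 1.17 (standard error 0.26, 2.25-fold) and missed the threshold (adjusted p = 0.012 from limma). It was 1.43 without wild-type replicate 4 (adjusted p = 0.00036 from limma). The gene is spliced into several isoforms, and 1 probe set does not tell them apart.

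*pde-1* (probe set 18472639) encodes a phosphodiesterase that calmodulin activates and that breaks down cyclic nucleotides. Log2 values of 8.80, 8.67, 8.72 and 7.43 were measured in the mutant, against 7.12, 7.25, 6.49 and 7.87 in wild-type. Replicate 4 was the lowest array in the mutant and the highest in wild-type, so that the strains crossed there. With all arrays the log2 fold change of 1.22 missed the threshold, with a standard error of 0.36 (adjusted p = 0.037 from limma, exact two-sided permutation test p = 0.0571). It did not pass without wild-type replicate 4 either, at 1.45 (adjusted p = 0.010 from limma, just above the threshold), and it passed without mutant replicate 4, at 1.55 (adjusted p = 0.0083).

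*lfe-2* (probe set 18452905) encodes a kinase of inositol trisphosphate, the messenger that releases calcium from the endoplasmic reticulum. Its log2 values were 9.58, 9.51, 9.51 and 9.33 in the mutant, against 8.50, 8.70, 8.30 and 9.23 in wild-type. The strains did not overlap, with replicate 4 of each strain again nearest to the other strain. The log2 fold change was 0.80 (standard error 0.20), which did not pass (adjusted p = 0.018 from limma), and without wild-type replicate 4 it was 0.98 (adjusted p = 0.00078 from limma).

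**Figure D2:**
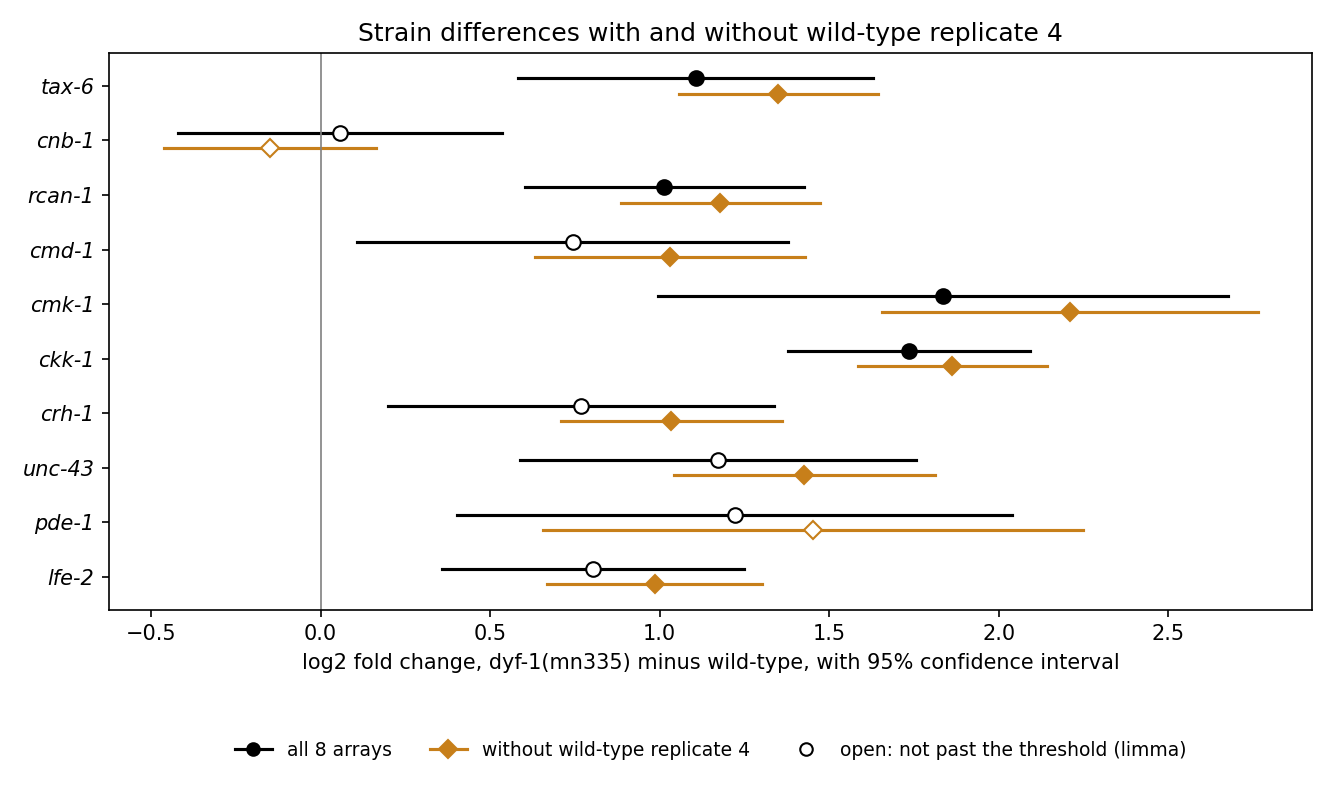
Log2 fold change of each gene, *dyf-1(mn335)* minus wild-type (x axis), with its 95% confidence interval, from all 8 arrays (black circles) and without wild-type replicate 4 (orange diamonds). Filled symbols passed the limma threshold, 4 of 10 with all arrays and 8 of 10 without that replicate.

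The calls of *tax-6*, *rcan-1* and *cmk-1* did not hold in smaller sets of arrays, except without wild-type replicate 4 or both replicate 4 arrays. When any 1 of the 7 arrays other than wild-type replicate 4 was left out, these genes no longer passed, although the adjusted p from limma went no higher than 0.033 for *tax-6*, 0.019 for *rcan-1* and 0.030 for *cmk-1*. Centring of the arrays on their medians also ended the calls of *tax-6* (adjusted p = 0.014 from limma) and *cmk-1* (adjusted p = 0.011), and cyclic loess that of *cmk-1* (adjusted p = 0.012). Adding the replicate number to the fit as a block ended the calls of *tax-6*, *rcan-1* and *cmk-1* (adjusted p = 0.030, 0.021 and 0.052 from limma). With 1 of the 7 arrays left out, the log2 fold changes ranged from 0.99 to 1.12 for *tax-6*, from 0.94 to 1.06 for *rcan-1* and from 1.60 to 2.01 for *cmk-1*.

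The replicate 4 arrays were set against replicates 1 to 3 gene by gene. Against the mean of wild-type replicates 1 to 3, wild-type replicate 4 was higher by 1.50 in *cmk-1*, 1.15 in *cmd-1*, 1.06 in *crh-1*, 1.02 in *unc-43* and 0.97 in *tax-6*, and by 0.51 to 0.92 in *ckk-1*, *rcan-1*, *lfe-2* and *pde-1*. In *cnb-1* it was lower by that measure, at -0.83. Over all probe sets this array lay above the other wild-type arrays in 36.9% and below them in 34.5%. In the same 10 genes, mutant replicates 1 to 3 differed from wild-type replicates 1 to 3 by 1.04 to 2.39, except for *cnb-1* at -0.23. Mutant replicate 4 departed from its own strain mostly in *pde-1*, where it was lower by that measure, at -1.30, and in *cmk-1*, at -0.71. Over replicates 1 to 3 of both strains, 10 of the 10 genes did not overlap between the strains, and neither did 59.1% of all probe sets.

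**Figure D3:**
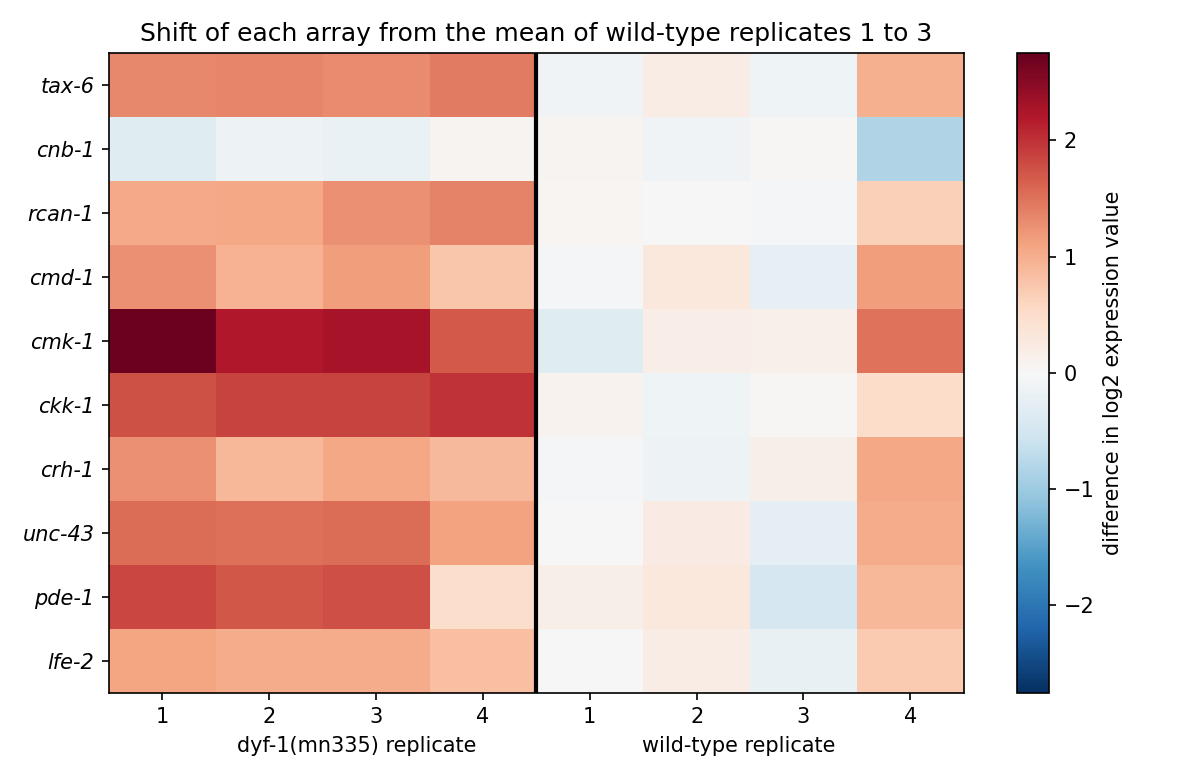
Difference of each array's log2 value (colour scale) from the mean of wild-type replicates 1 to 3, for the 10 genes (rows) on the *dyf-1(mn335)* and wild-type arrays (columns). The column of wild-type replicate 4 holds positive differences of 0.51 to 1.50 in 9 genes and -0.83 in *cnb-1*.

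As a description, the deviations of each array from its strain mean were compared between the genes over the 8 arrays. For *cnb-1* with the 9 other genes Pearson's r was -0.98 to -0.64, and for the 36 pairs among the other genes it was 0.20 to 0.99. These points share their arrays, and the pattern rests on the replicate 4 arrays. Over the 6 arrays without them, r was -0.88 to 0.94 for *cnb-1* with the other genes, and above 0 in 2 of these 9 pairs. It was above 0 in 20 of the 36 other pairs.

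Whether partners in the pathway changed unequally was asked for 6 pairs, as the difference between the log2 values of both genes on each array, with exact two-sided permutation tests adjusted after Benjamini-Hochberg over the 6 pairs. The smallest p of this test is 0.0286, so that a pair could pass an adjusted p of 0.05 only if at least 4 of the 6 pairs separated the strains completely. With 2 such pairs, none of the 6 could pass, and this says nothing of whether partners changed alike. The difference *tax-6* minus *cnb-1*, the subunits of calcineurin, was 1.38, 1.21, 1.19 and 1.07 on the mutant arrays, against -0.45, 0.02, -0.43 and 1.52 on the wild-type arrays. Mutant replicates 1 to 4 lay together above wild-type replicates 1 to 3, and wild-type replicate 4 lay above them all. The strains differed by 1.05 (standard error 0.47, exact permutation p = 0.143, adjusted p = 0.214), and by 1.50 without wild-type replicate 4. For *tax-6* minus its regulator *rcan-1* the difference between the strains was 0.09 (standard error 0.13, exact permutation p = 0.486, adjusted p = 0.583), and 0.17 without wild-type replicate 4.

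Within the kinase branch, *cmk-1* minus *crh-1* differed between the strains by 1.07 (standard error 0.22) and *unc-43* minus *cmk-1* by -0.66 (standard error 0.23). In both pairs the arrays of the strains did not overlap, which gives the smallest exact permutation p of 0.0286, and an adjusted p of 0.0857. Without wild-type replicate 4 these differences were 1.18 and -0.78. For *cmk-1* minus *crh-1* the arrays read -1.37, -1.52, -1.62 and -2.04 in the mutant, against -3.12, -2.51, -2.82 and -2.38 in wild-type. For *cmk-1* minus its upstream kinase *ckk-1* the strain difference was 0.10 (standard error 0.39, exact permutation p = 0.686, adjusted p = 0.686), with 0.35 without wild-type replicate 4, and it turned to -0.10 without mutant replicate 1 and -0.12 without wild-type replicate 1. For *tax-6* minus *cmd-1* it was 0.36 (standard error 0.15, exact permutation p = 0.0571, adjusted p = 0.114), and 0.32 without wild-type replicate 4. These values speak of unequal change only, since levels of different probe sets cannot be compared.

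**Figure D4:**
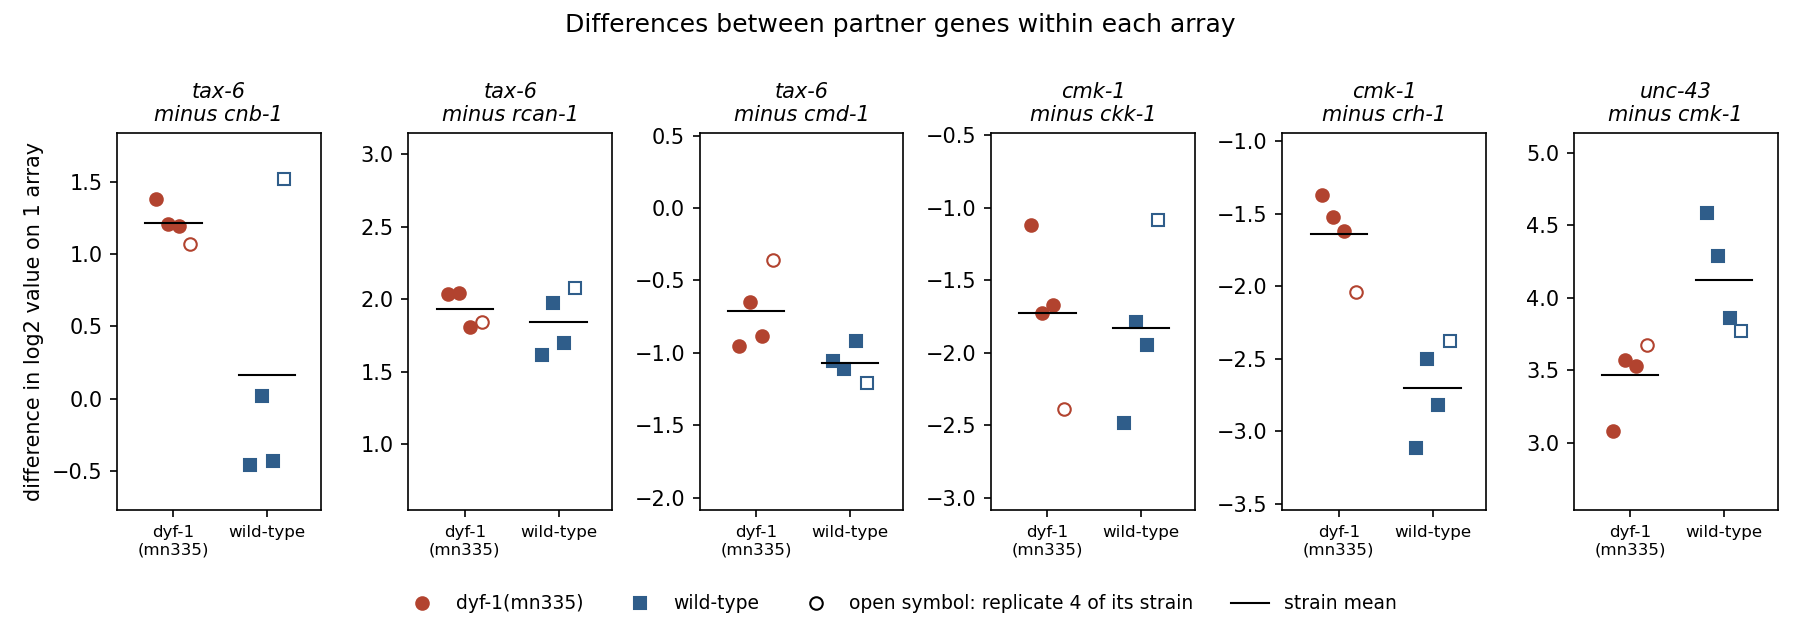
Difference between the log2 values of the genes of a pair on each array (y axis) in *dyf-1(mn335)* (circles) and wild-type (squares), open for replicate 4, with a line at the strain mean. The strains do not overlap for *cmk-1* minus *crh-1* and for *unc-43* minus *cmk-1*, and wild-type replicate 4 stands at 1.52 for *tax-6* minus *cnb-1*.

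Other calcium, kinase and phosphatase genes were described from 8 further lists, some of them made of family relatives. The lists hold 111 genes, 110 of which had a probe set of their own. Of these, 19 rose, 1 fell and the median log2 fold change was 0.50. The shares over all probe sets were 6.56% higher and 3.46% lower. With wild-type replicate 4 left out, 53 rose and 4 fell, where the shares over all probe sets were 13.3% and 12.9%. No test was made of a list.

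Of 12 genes for calcium channels and stores, 5 rose and 0 fell, with a median of 0.52 (7 and 0 without wild-type replicate 4). The 5 were all parts of voltage-gated calcium channels. *ccb-1*, a beta subunit, was at log2 values of 8.54 to 8.80 in the mutant and 6.68 to 7.83 in wild-type (log2 fold change 1.63). *unc-2*, the pore of the channel that triggers transmitter release, rose by 1.69, and *egl-19*, the pore of the main muscle channel, by 1.22 (adjusted p = 0.0022 for *ccb-1*, 0.0034 for *unc-2* and 0.0037 for *egl-19* from limma). The other 2, *cca-1* and *unc-36*, rose by 0.99 and 0.88.

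Of 13 calcium pumps and exchangers, 1 rose and 0 fell, with a median of 0.57. Both counts depended on wild-type replicate 4, without which 6 rose and 2 fell. With all arrays the gene that rose was *ncx-4*, a sodium-calcium exchanger gene, at 7.69 to 7.77 in the mutant and 6.58 to 6.92 in wild-type (log2 fold change 0.99, adjusted p = 0.00092 from limma).

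Of 15 genes of the phospholipase C and protein kinase C branch, 3 rose and 0 fell, with a median of 0.51 (7 and 0 without wild-type replicate 4). *dgk-1* and *dgk-3* encode diacylglycerol kinases, which remove the lipid that activates protein kinase C, and *tpa-1* encodes such a kinase. The log2 fold changes were 1.86 for *dgk-1*, 1.61 for *dgk-3* and 1.20 for *tpa-1* (adjusted p = 0.0038, 0.00040 and 0.0056 from limma), and *dgk-3* was dim in wild-type, at 4.25 to 4.81.

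Of 12 genes of the cyclic nucleotide branch, on which *pde-1* acts, 4 rose and 0 fell, with the highest median of the 8 lists, 0.96 (10 and 0 without wild-type replicate 4). The adenylyl cyclase genes *acy-1*, *acy-2* and *acy-3*, whose enzymes make cyclic AMP, rose by log2 fold changes of 1.38, 1.15 and 0.98 (adjusted p = 0.0024, 0.0036 and 0.0073 from limma). *acy-2* was dim in wild-type, at 4.63 to 5.17.

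Of 14 measured genes downstream of the calmodulin kinases and calcineurin, 2 rose and 0 fell, with a median of 0.58 (10 and 0 without wild-type replicate 4). *tir-1*, an adaptor that acts between calmodulin kinase II and a MAP kinase cascade in olfactory neurons, rose by 1.07, and *mef-2*, a transcription factor that is a target of calcium signalling in other animals, by 0.63 (adjusted p = 0.0081 and 0.0083 from limma). The mutant arrays read 7.63 to 7.68 for *mef-2*, and the wild-type arrays 6.81 to 7.16.

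Of 10 other kinases of the calmodulin kinase superfamily, 1 rose and 0 fell, with a median of 0.56 (6 and 0 without wild-type replicate 4). With all arrays it was *sad-1*, a kinase of presynaptic sites, at 7.07 to 7.84 in the mutant and 4.97 to 6.49 in wild-type (log2 fold change 1.94, adjusted p = 0.0048 from limma). Of 18 calmodulin-like and calcium sensor proteins, 3 rose and 0 fell, with a median of 0.14. The median turned to -0.04 without wild-type replicate 4, where 5 rose and 0 fell. Without both replicate 4 arrays 5 rose and 3 fell, where 4977 of all 29317 probe sets were higher and 4781 lower. The neuronal calcium sensor genes *ncs-6* and *ncs-5* rose by 1.50 and 1.29 and the calmodulin-like gene *cal-4* by 1.50 (adjusted p = 0.00049, 0.0018 and 0.0036 from limma), and *ncs-6* was dim in wild-type, at 4.15 to 4.57.

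Of 16 other protein phosphatases and their subunits, 0 rose and 1 fell, with a median of 0.19 (2 and 2 without wild-type replicate 4). The one that fell with all arrays was *gsp-3*, a phosphatase of sperm, at 4.92 to 5.29 in the mutant and 5.87 to 6.21 in wild-type (log2 fold change -0.87, adjusted p = 0.0030 from limma).

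**Figure D5:**
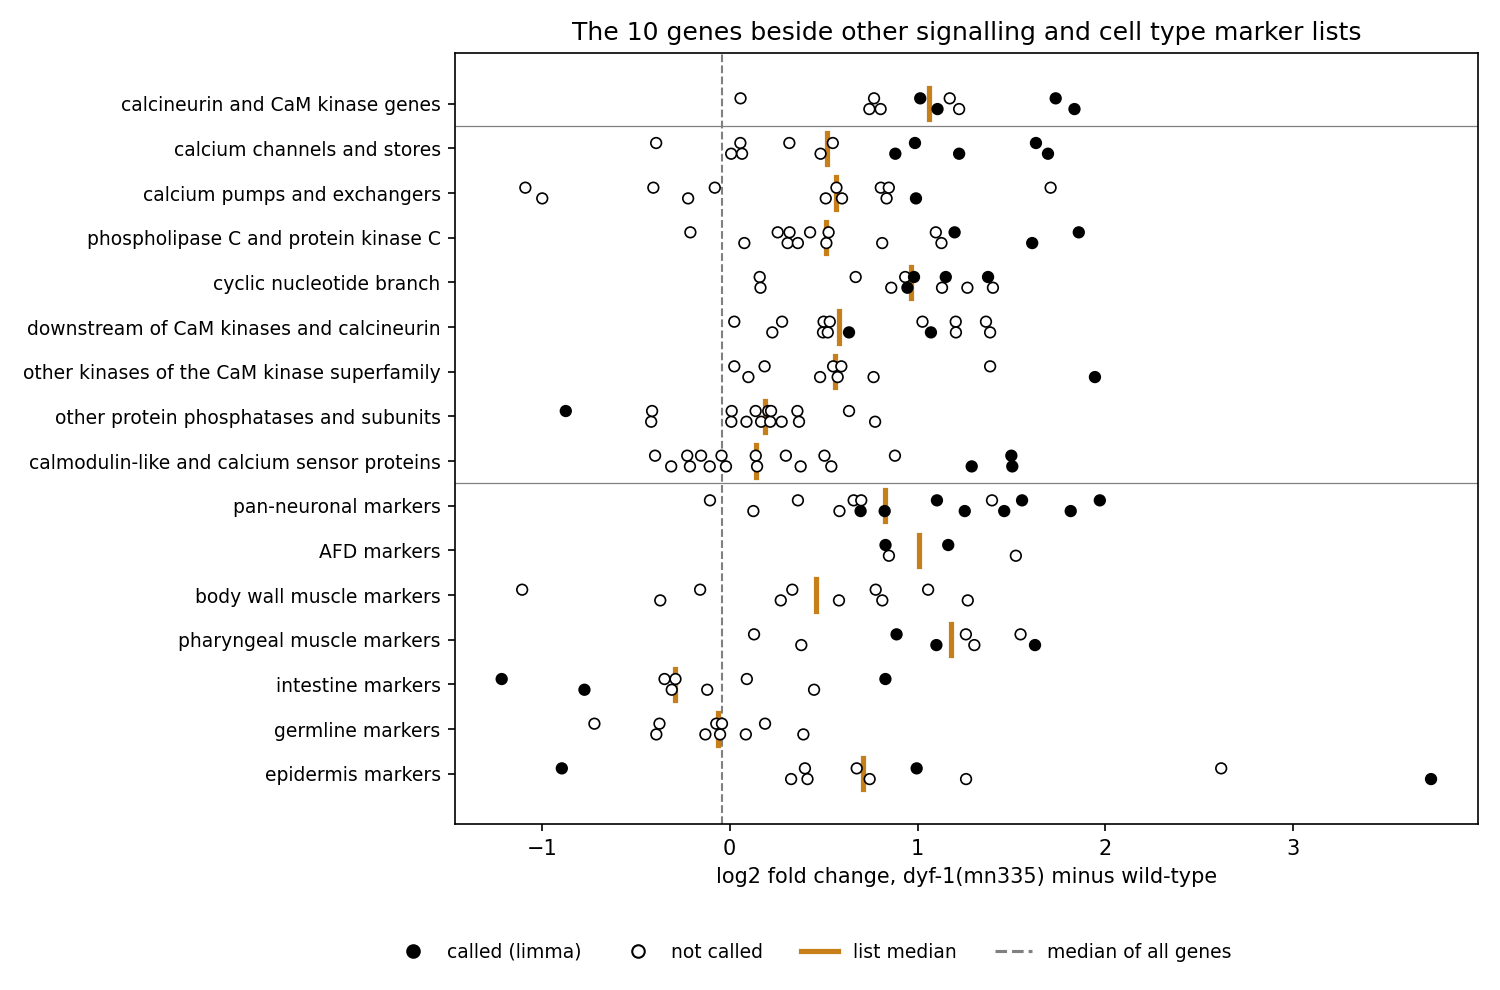
Log2 fold change of each gene, *dyf-1(mn335)* minus wild-type (x axis), for the 10 genes (top), 8 other signalling lists (middle) and 7 cell type marker lists (bottom), filled where limma called the gene, with the list median (orange) and the median of all genes (dashed, -0.04). Among the signalling lists the medians run from 1.06 for the 10 genes to 0.14 for the calcium sensors. Among the marker lists the highest, 1.18 for pharyngeal muscle, lies above that of the 10 genes. The others are 1.005 for AFD, 0.82 for pan-neuronal, 0.71 for epidermis, 0.46 for body wall muscle, -0.06 for germline and -0.29 for intestine.

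Marker genes of several cell types moved in the same arrays, and their counts are read beside the same shares, 6.56% of all probe sets higher and 3.46% lower with all arrays, and 13.3% and 12.9% without wild-type replicate 4. Of 15 pan-neuronal markers 8 rose and 0 fell (11 and 0 without wild-type replicate 4), and their mean log2 value was 9.25 to 9.38 in the mutant and 8.21 to 8.74 in wild-type, with wild-type replicate 4 at 8.74 and the other 3 wild-type arrays at 8.21 to 8.30. The 3 with the smallest p were *rab-3*, *ric-4* and *unc-10*, genes of synaptic vesicles and their release, with log2 fold changes of 1.82, 1.25 and 1.97. Of 8 pharyngeal muscle markers 3 rose and 0 fell (*myo-5*, *tnt-4* and *tni-4*), and 6 and 0 without wild-type replicate 4, with a mean level of 9.54 to 9.81 in the mutant and 8.46 to 9.14 in wild-type. Of 10 epidermis markers 2 rose and 1 fell. *wrt-2* rose by a log2 fold change of 3.73, the largest in the marker lists, and *dpy-7* by 0.995. The gene that fell was *col-19*, a cuticle collagen, at -0.89. The mean level of the 10 epidermis markers was 8.56 to 9.22 in the mutant and 7.55 to 8.60 in wild-type. The strains thus overlapped at their replicate 4 arrays. Without wild-type replicate 4, 5 epidermis markers rose and 1 fell.

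The mean level of 10 body wall muscle markers was 9.87 to 10.25 in the mutant and 9.53 to 10.13 in wild-type. The overlap came from wild-type replicate 4 at 10.13, and the other 3 wild-type arrays were at 9.53 to 9.63. With all arrays 0 of the 10 were called, 7 had a log2 fold change above 0, and the median was 0.46. Without wild-type replicate 4, 5 rose and 1 fell. The smallest p belonged to *mlc-2*, which went against most of the list at a log2 fold change of -1.11 (adjusted p = 0.027 from limma). The mean level of 10 germline markers was 9.89 to 10.18 in the mutant and 10.02 to 10.41 in wild-type, with 0 called, and 0 higher and 1 lower without wild-type replicate 4. The smallest p was that of *him-3*, at -0.72 (adjusted p = 0.046 from limma). Of 9 measured intestine markers 1 rose (*ifb-2*) and 2 fell (*act-5* and *ges-1*), as many as without wild-type replicate 4, with a mean level of 9.23 to 9.40 in the mutant and 9.40 to 9.57 in wild-type.

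The thermosensory neuron AFD, in which *tax-6* and *cmk-1* are known to act, was followed by 4 markers. The guanylyl cyclase genes *gcy-8* and *gcy-18* rose by log2 fold changes of 0.83 and 1.16 (adjusted p = 0.0078 and 0.00096 from limma). *gcy-23* and the homeobox gene *ttx-1* were at 0.85 and 1.52 and did not pass (adjusted p = 0.024 and 0.063). All 4 rose without wild-type replicate 4. The 3 cyclase genes were dim in wild-type, and *gcy-8* and *gcy-23* lay under a log2 value of 5 on all 8 arrays, so that the size of their changes is uncertain. The part of neuronal, muscle or epidermal transcripts in the differences of the 10 genes was not tested.

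Genes whose values were most like those of *tax-6* over the 8 arrays, among 13867 genes with a mean log2 value of at least 5, were *mca-3*, a plasma membrane calcium pump gene, *rab-35*, *let-19*, *K09A9.6* and *tpa-1* (Pearson's r of 0.992 to 0.995). Such likeness was common, with r above 0.9 in 1538 genes, and it carries the strain difference and the position of wild-type replicate 4. For the deviations from the strain means they were *Y54F10AR.1*, *ift-139*, *swt-1*, *atln-1* and *nhr-23* (r of 0.988 to 0.996), and 547 genes had r above 0.9.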

How the data were processed

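The authors hybridised RNA of 8 samples to Affymetrix *C. elegans* gene arrays, used the R package oligo for RMA, and deposited 1 log2 value per probe set and array, 29317 in all. Background correction and normalisation between arrays are thus already in the values, and probe-level data were not used. Genes were named from the platform annotation, which gives 1 symbol for 25546 probe sets, and a gene with several was represented by the brightest. Groups came from the labels.

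The strain comparison was a linear model in limma 3.58.1 (lmFit, then eBayes, default settings, R 4.3.3), two-sided and without covariates. The Benjamini-Hochberg adjustment covered the whole table, and an adjusted p under 0.01 was a call. Exact permutation tests over arrays served for single values. Of the other lists, up to 3 called genes per direction with the smallest p were named, or the 1 with the smallest p where none was called, and all genes of lists of up to 5. *cca-1* and *unc-36* fall outside this rule and were chosen with their values known. Genes like *tax-6* were the 5 with the highest r by each measure. The 10 genes and all lists were chosen with earlier results of these data known.

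Alternatives were an adjusted p under 0.05, a filter at a mean log2 value of 5 (15520 probe sets kept), an intensity trend with robust spread, array weights, centring on array medians, cyclic loess, a block for the replicate number, averaging a gene's probe sets, and leaving out each array or both replicate 4 arrays. The fit was tested on simulated data. Figures were drawn with matplotlib 3.10.9. The legends describe the samples of a strain as independent biological experiments. *nsy-1* and *opt-2*, of the fixed lists, were not analysed here. The number of arrays limits the precision.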

Additional observations from a re-analysis of the deposited data

Results flagged for a closer look

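In 3 of the 20 groups of 4 arrays (10 genes in 2 strains), 1 array stood far from the other 3 of its strain by Dixon's test, which chance does in about 1 of 20 groups. *rcan-1* was at a log2 value of 8.76 in wild-type replicate 4, against 8.05 to 8.15 in the other wild-type arrays. *unc-43* was at 10.64 in *dyf-1(mn335)* replicate 4, against 11.06 to 11.08 in the other mutant arrays. *pde-1* was at 7.43 in the same mutant array, against 8.67 to 8.80 in the others. All 3 values came from the replicate 4 arrays that stand apart over all probe sets, and each lay towards the other strain.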

How the results depend on the processing

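The number of the 10 genes called higher was 4 with all arrays, 7 at an adjusted p under 0.05, 9 with array weights, 2 after centring the arrays on their medians, 9 without both replicate 4 arrays and 1 to 8 when single arrays were left out. None was called lower in any of these settings. *cnb-1* turned its direction with array weights (-0.17), after centring (-0.10), without mutant replicate 4 (-0.02), without wild-type replicate 4 (-0.15) and without both replicate 4 arrays (-0.23), with a range of -0.15 to 0.15 when single arrays were left out. The strain difference in *cmk-1* minus *ckk-1* turned without mutant replicate 1 (-0.10) or wild-type replicate 1 (-0.12), with a range of -0.12 to 0.35. The other 9 genes kept their direction in all 17 alternatives. After centring, *tax-6* (adjusted p = 0.014) and *cmk-1* (adjusted p = 0.011) missed the limma threshold, and the median over all probe sets was -0.19, against -0.04 without it. After cyclic loess *cmk-1* missed it (adjusted p = 0.012). Of the 110 genes of the other lists, 19 were higher and 1 lower with all arrays, 40 and 3 at an adjusted p under 0.05, 64 and 7 with array weights, 60 and 7 without both replicate 4 arrays, and 4 to 53 higher and 0 to 4 lower without single arrays. Of all probe sets, 1924 were higher and 1015 lower with all arrays, 3848 and 3419 at an adjusted p under 0.05, 5489 and 5391 with array weights, 1515 and 1653 after centring, 4977 and 4781 without both replicate 4 arrays, and 932 to 3893 higher and 324 to 3788 lower without single arrays. The cause of these changes was not tested. The labels give a replicate number and do not say whether same-numbered samples were handled together. Their deviations from the strain means correlated at -0.31, 0.01, -0.21 and -0.57 for replicates 1 to 4, which cannot settle it. With the replicate block 236 probe sets were higher and 79 lower, 1 of the 10 genes (*ckk-1*) was called, and 0 and 0 genes of the other lists. No paired fit was run for the pairs of genes, since 4 pairs of arrays cannot reach an exact two-sided p under 0.05. Array number and signal over background limit what can be said of dim genes.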
